A study of Saccharomyces cerevisiae with 6 samples.

Results

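The genes described here encode 9 structural proteins of the yeast cell wall and the yapsin YPS1, a protease at the cell surface. They were chosen by name: the PIR genes PIR1, HSP150, PIR3 and CIS3, the genes SED1, CWP1, CWP2, CCW12 and CCW14 for proteins with a glycosylphosphatidylinositol (GPI) anchor, and YPS1. The choice was made with earlier results of these data known. All 10 symbols matched a systematic name in the value table, and they are 10 of the 6362 genes tested. Under compound 089, 7 of the 10 rose and 1 fell in the erg6 deletion strain, where 54.7% of all genes passed the test (23.2% rose and 31.5% fell). In the snq2 deletion strain 8 fell, where 51.5% of all genes passed (25.3% rose and 26.2% fell). In the parental strain 8 fell and 1 rose, where 54.0% of all genes passed (27.3% rose and 26.7% fell).

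The study measured total RNA of 3 haploid Saccharomyces cerevisiae strains on 6 arrays with 2 colours, 2 arrays per strain, which the series text calls biological replicates. One strain carried erg6::kanMX4 and so had no ERG6, whose enzyme methylates the sterol side chain on the way to ergosterol. Another carried snq2::kanMX and so lacked SNQ2, a plasma membrane transporter that exports drugs. The third was their parent, BY4742, a laboratory strain, and all 3 were of mating type alpha with his3, leu2, lys2 and ura3 mutations. On each array, cells treated with 0.2 mM 089 for 4 h (Cy5) were set against untreated cells of the same strain held for the same time (Cy3). Both cultures were shaken at 28 °C in rich medium with 2% glucose at pH 4.8, at 1000000000 cells per ml. The labels give 089 a systematic name with a bicyclic oxygen- and nitrogen-containing core. Each value is read as the log2 of treated over untreated signal, with the base 2 and this direction taken as likely, since no source used here states them. In the opposite direction every sign below would turn. "Rose" and "fell" are used for a limma adjusted p under 0.05, and ± gives the fitted standard error (each strain has n = 2).

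The wall of budding yeast is a network of glucan with some chitin, covered by mannoproteins. PIR proteins (proteins with internal repeats) are secreted, and they are held on beta-1,3-glucan by bonds that mild alkali breaks. GPI wall proteins start as membrane-anchored precursors and are moved onto beta-1,6-glucan through the remnant of their anchor. Many of these genes respond to the cell wall integrity pathway, in which a kinase cascade acts through the transcription factor Rlm1, and to growth phase and cell cycle. Yapsins are aspartyl proteases, anchored by GPI themselves, that cut surface proteins next to basic residues.

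A call alone did not separate a transcript from a control spot in these data. Of the 683 spots named Blank or empty, 72.3% passed at the same unadjusted p in the erg6 deletion strain, 40.6% in the snq2 deletion strain and 43.2% in the parental strain. The central 95% of those spots spanned -1.87 to 3.57, -1.43 to 2.00 and -1.36 to 2.49 in the same order. Replicates correlated across genes, which are not independent, at r = 0.713 in the erg6 deletion strain, 0.916 in the snq2 deletion strain and 0.901 in the parental strain. The median gene lay at -0.11 in the erg6 deletion strain, and the members' values in that strain are also given with centred arrays. Centring the arrays turned its 1476 higher and 2002 lower genes into 1743 higher and 1578 lower. The RNA came from whole cultures, so that a change in fewer cells and a change of RNA per cell cannot be told apart. ERG6 and SNQ2 give no check of the strain labels, since treated and untreated cells on 1 array shared the deletion. Their log2 ratios were -0.75 ± 0.11 for ERG6 in the erg6 deletion strain and 0.12 ± 0.089 for SNQ2 in the snq2 deletion strain. ERG6 thus counted as fallen (limma adjusted p = 0.00347), although treated and untreated cells both lacked the gene. SNQ2 did not pass (limma adjusted p = 0.308). The members that rose in the erg6 deletion strain had 0.52 to 1.19.

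The PIR genes fell in the snq2 deletion and parental strains, and 2 of the 4 rose in the erg6 deletion strain. PIR3 had log2 ratios of -0.055 and 0.28 on the erg6 deletion arrays, -2.84 and -2.81 on the snq2 deletion arrays, and -2.04 and -2.14 on the parental arrays. The 3 strains did not overlap: the erg6 deletion arrays lay near 0 and the snq2 deletion arrays lowest. The share of all genes without such overlap is not given here, so its absence is not read as a trait of the members. In the fit PIR3 was at 0.11 ± 0.11 in the erg6 deletion strain (limma adjusted p = 0.396), and it fell in the snq2 deletion strain (-2.83 ± 0.11) and in the parental strain (-2.09 ± 0.11). HSP150, whose protein is a heat-inducible member of the family and is released into the medium in part, had 0.23 and 0.41 in the erg6 deletion strain, -2.77 and -2.63 in the snq2 deletion strain, and -1.62 and -1.98 in the parental strain. It showed the order of PIR3, with no overlap between strains. HSP150 did not pass in the erg6 deletion strain (0.32 ± 0.12, limma adjusted p = 0.0703) but passed there with centred arrays (0.42, adjusted p = 0.0301, over a range of 0.0301 to 0.306). It fell in the snq2 deletion strain (-2.70 ± 0.12, a ratio of 0.154) and in the parental strain (-1.80 ± 0.12, a ratio of 0.288).

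PIR1 and CIS3 had log2 ratios nearer to 0 than PIR3 and HSP150 in the snq2 deletion and parental strains. PIR1, a wall protein that accumulates at bud scars, had 0.70 and 0.61 on the erg6 deletion arrays, -1.27 and -0.92 on the snq2 deletion arrays, and -1.46 and -1.47 on the parental arrays. Here the parental arrays were lowest, and the 3 strains again did not overlap. PIR1 rose by 0.65 ± 0.11 in the erg6 deletion strain and fell in the snq2 deletion strain (-1.10 ± 0.11) and in the parental strain (-1.46 ± 0.11). CIS3, the member also known as PIR4, had 0.48 and 0.56 in the erg6 deletion strain, -0.95 and -1.08 in the snq2 deletion strain, and -0.81 and -0.79 in the parental strain. Its replicates lay within 0.13 of each other in every strain, and the groups did not overlap. CIS3 rose by 0.52 ± 0.083 in the erg6 deletion strain and fell in the snq2 deletion strain (-1.02 ± 0.083) and in the parental strain (-0.80 ± 0.083). In a fit to the 2 erg6 deletion arrays alone the rise of CIS3 did not pass (adjusted p = 0.0506, over a range of 0.00277 to 0.0506).

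Of the 5 genes for GPI wall proteins, 4 rose and 1 fell in the erg6 deletion strain, 3 fell and 2 did not pass in the snq2 deletion strain, and 3 fell, 1 rose and 1 did not pass in the parental strain. SED1, the major wall protein of stationary phase cells, had 0.88 and 0.62 on the erg6 deletion arrays, -0.43 and -0.19 on the snq2 deletion arrays, and -1.87 and -1.97 on the parental arrays. The snq2 deletion strain lay between the other two, with no overlap. SED1 rose by 0.75 ± 0.11 in the erg6 deletion strain and fell by 1.92 ± 0.11 in the parental strain, to a ratio of 0.265. In the snq2 deletion strain it did not pass (-0.31 ± 0.11, limma adjusted p = 0.0632), but it did with quantile-normalised arrays (adjusted p = 0.0498) or without either erg6 deletion replicate (adjusted p = 0.0458 each, over a range of 0.0458 to 0.378).

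CWP1, a mannoprotein found at the birth scar, was the member that was below 0 on all 6 arrays. It had -0.44 and -0.48 in the erg6 deletion strain, -0.47 and -0.56 in the snq2 deletion strain, and -1.25 and -1.10 in the parental strain. The arrays of the 2 deletion strains overlapped, and the parental arrays lay below both. CWP1 fell in the erg6 deletion (-0.46 ± 0.085), snq2 deletion (-0.52 ± 0.085) and parental (-1.17 ± 0.085) strains. The erg6 deletion call was lost in a fit to that strain alone (adjusted p = 0.0581, between 0.00523 and 0.0581 over the alternatives). Leaving out snq2 deletion replicate 2 ended the other deletion strain's call (adjusted p = 0.0599, over a range of 0.00273 to 0.0599).

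CWP2 was the 1 gene of the 10 that rose in the parental strain. It encodes a small, abundant mannoprotein of growing cells that helps them withstand low pH. Its log2 ratios were 1.45 and 0.93 in the erg6 deletion strain, -0.028 and 0.31 in the snq2 deletion strain, and 0.95 and 1.01 in the parental strain. The erg6 deletion and parental arrays overlapped, and the snq2 deletion arrays lay below both. CWP2 rose by 1.19 ± 0.15 in the erg6 deletion strain, a ratio of 2.29, and by 0.98 ± 0.15 in the parental strain, a ratio of 1.98. In the snq2 deletion strain it had 0.14 ± 0.15 (limma adjusted p = 0.485).

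CCW12 and CCW14 encode small wall proteins, of which CCW12 is abundant in growing cells and its loss weakens the wall strongly, and CCW14 belongs to the inner layer. CCW12 had 0.33 and 0.79 in the erg6 deletion strain, -0.84 and -0.68 in the snq2 deletion strain, and -0.35 and -0.69 in the parental strain. The last 2 strains overlapped, and the erg6 deletion arrays lay above both. CCW12 rose by 0.56 ± 0.15 in the erg6 deletion strain and fell in the snq2 deletion strain (-0.76 ± 0.15) and the parental strain (-0.52 ± 0.15). Each of its 3 calls was lost under some alternatives. The rise was lost without erg6 deletion replicate 2 (0.33, adjusted p = 0.154), without either snq2 deletion replicate (adjusted p = 0.0509 each) and in a fit to the strain alone (adjusted p = 0.0918), over a range of 0.0141 to 0.154. The fall in the snq2 deletion strain did not pass without its replicate 1 (adjusted p = 0.0934) and without its replicate 2 (0.0682), and ranged from 0.000996 to 0.0934. The fall in the parental strain did not pass when its replicate 1 was left out (-0.69, adjusted p = 0.0695), when its replicate 2 was left out (-0.35, adjusted p = 0.257) or when either snq2 deletion array was (adjusted p = 0.0614 each), and ranged from 0.0121 to 0.257.

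CCW14 had 0.46 and 0.89 in the erg6 deletion strain, -1.34 and -1.50 in the snq2 deletion strain, and -0.045 and -0.042 in the parental strain. No strains overlapped, and the parental arrays lay at 0, between the others. CCW14 rose by 0.67 ± 0.12 in the erg6 deletion strain, a call lost in a fit to that strain alone (adjusted p = 0.0623, over a range of 0.00478 to 0.0623). It fell by 1.42 ± 0.12 in the snq2 deletion strain, to a ratio of 0.374, and had -0.043 ± 0.12 in the parental strain (limma adjusted p = 0.787).

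YPS1 spanned the widest range of strain means among the 10 genes, 3.10 on the log2 scale. It had 0.90 and 0.97 on the erg6 deletion arrays, -1.42 and -1.90 on the snq2 deletion arrays, and -2.27 and -2.05 on the parental arrays. The strains did not overlap. YPS1 rose by 0.94 ± 0.14 in the erg6 deletion strain, a ratio of 1.92, and fell in the snq2 deletion strain (-1.66 ± 0.14, a ratio of 0.316) and the parental strain (-2.16 ± 0.14, a ratio of 0.224).

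**Figure D1:**
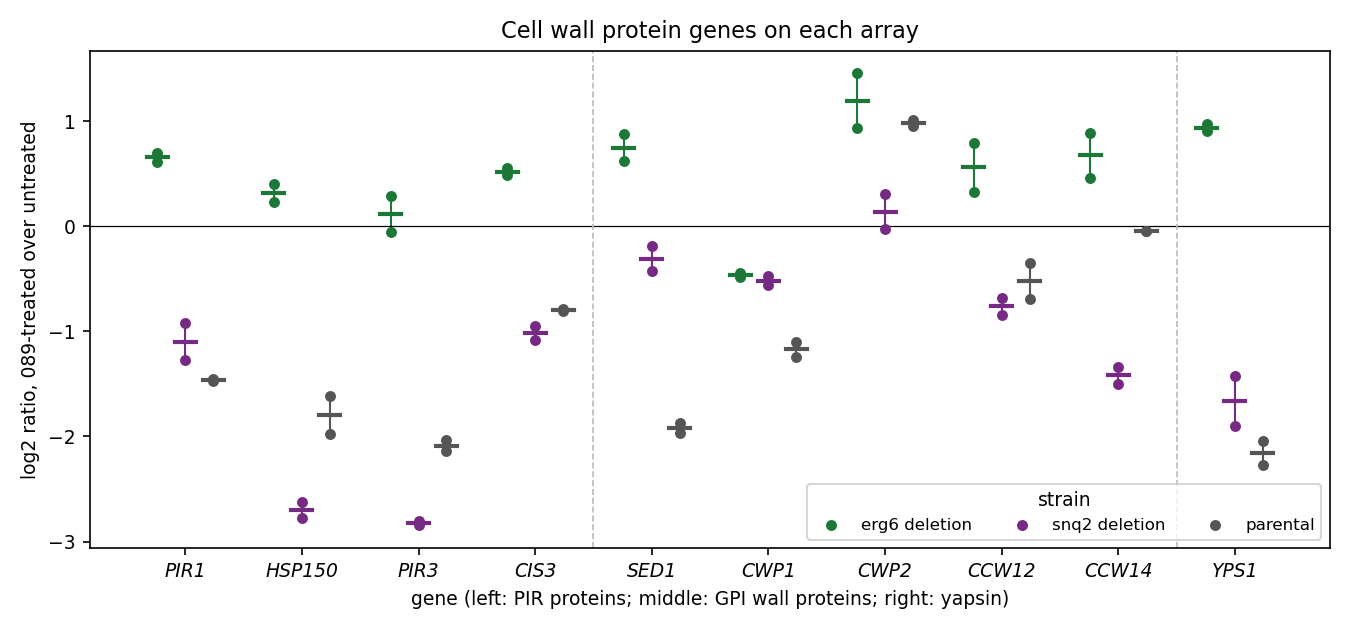
Log2 ratios of 089-treated over untreated cells (vertical axis) for the 10 genes (horizontal axis), with 1 point per array, a thin line joining the 2 arrays of a strain and a bar at their mean. The erg6 deletion arrays lie highest for every gene except CWP1 and CWP2, whose arrays overlap those of another strain, and for PIR1, HSP150, PIR3, CIS3, SED1, CCW14 and YPS1 no 2 strains overlap. The share of all genes without overlap is not given here.

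Counted together, the 10 genes had a median of 0.61 in the erg6 deletion strain, against -0.11 for all genes, and with centred arrays 8 rose and 1 fell. On centred arrays that strain's values were 0.76 for PIR1, 0.42 for HSP150, 0.22 for PIR3, 0.63 for CIS3, 0.86 for SED1, -0.36 for CWP1, 1.30 for CWP2, 0.67 for CCW12, 0.78 for CCW14 and 1.05 for YPS1. The median of the 10 was -1.06 in the snq2 deletion strain, against -0.027 for all genes, and -1.32 in the parental strain, against -0.021 for all genes. The count in the erg6 deletion strain was 4, all of them higher, in a fit to the 2 arrays of that strain alone, where PIR1, SED1, CWP2 and YPS1 passed. Quantile normalisation enlarged all 8 parental falls, with CWP1 then at -1.24, CIS3 at -0.81 and CCW12 at -0.53. The other 5 grew more: PIR1 lay at -1.87, HSP150 at -2.68, PIR3 at -3.11, SED1 at -2.92 and YPS1 at -3.12. As a ratio that is 0.132 for SED1 and 0.115 for YPS1, against 0.265 and 0.224 as deposited, so the size of these falls depends on the scaling.

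Against the control spots the falls reached further than the rises. All 10 genes lay inside the central 95% of control spots in the erg6 deletion strain. Below that range were PIR3, HSP150 and YPS1 in the snq2 deletion strain, where 5.03% of all genes lay below it. In the parental strain PIR1, HSP150, PIR3, SED1 and YPS1 lay below it, as did 3.08% of all genes. The empty spots had a median of 2.11 in the erg6 deletion strain, 0.55 in the snq2 deletion strain and 0.70 in the parental strain, so that the range is not symmetric about 0. The part that background signal has in the members' ratios was not tested.

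**Figure D2:**
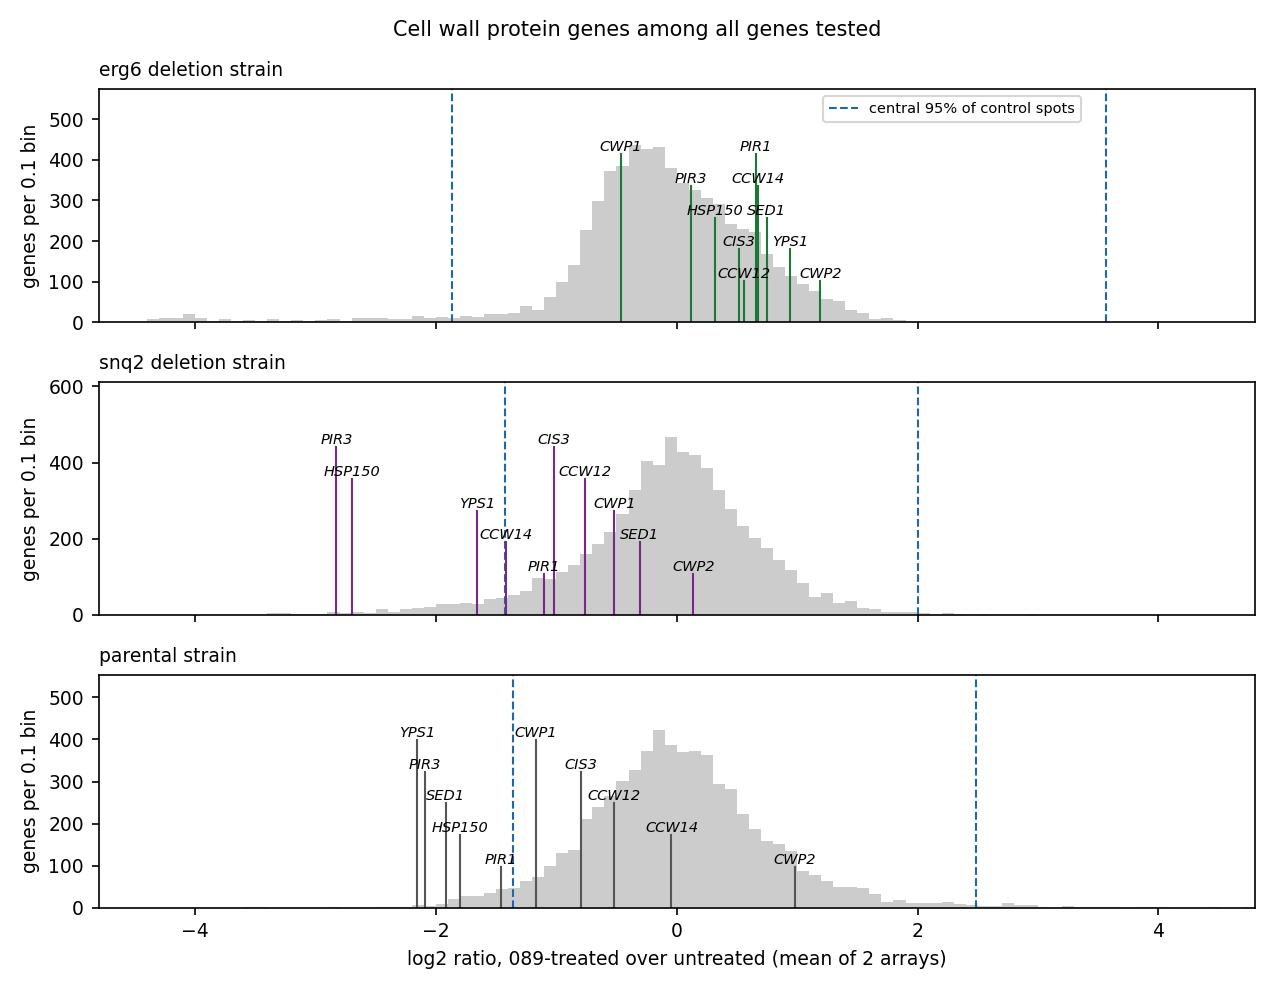
Histograms of the log2 ratios (mean of 2 arrays, horizontal axis) of all 6362 genes in bins of 0.1 (vertical axis, genes per bin), by strain, with a line for each of the 10 genes and dashed lines at the central 95% of the 683 control spots. The heights of the gene lines are only for legibility. PIR3 and HSP150 stand in the lower tail of the snq2 deletion strain, YPS1, PIR3, SED1 and HSP150 in that of the parental strain, and all 10 genes stand inside the control range of the erg6 deletion strain.

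Whether the response differed between strains was tested directly. The comparisons share arrays, so that they are not independent of each other. The response of the erg6 deletion strain was above that of the parental strain for 9 of the 10 genes, in a comparison where 56.8% of all genes passed (25.4% higher, 31.4% lower). For the 10, the median difference was 1.72, against -0.13 for all genes. YPS1 differed by 3.10 ± 0.19 (limma adjusted p = 0.000263), SED1 by 2.67 ± 0.15 (adjusted p = 0.000224), PIR3 by 2.20 ± 0.15 (adjusted p = 0.000328), PIR1 by 2.12 ± 0.15 (adjusted p = 0.000356) and HSP150 by 2.11 ± 0.17 (adjusted p = 0.000440). CIS3 differed by 1.32 ± 0.12, CCW12 by 1.08 ± 0.21, CCW14 by 0.72 ± 0.17 and CWP1 by 0.71 ± 0.12. The CCW14 difference did not pass with parental replicate 1 left out (adjusted p = 0.0763) or replicate 2 left out (0.0740), and ranged from 0.00515 to 0.0763. With quantile normalisation the YPS1 difference was 4.09, that of SED1 3.69, that of PIR3 3.26 and that of HSP150 3.02. All 9 differences lay inside the central 95% of control spots in this comparison (-2.21 to 3.19). For CWP2 the difference was 0.21, with a 95% interval of -0.33 to 0.76, and it did not pass (adjusted p = 0.439).

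The snq2 deletion and parental responses differed for 6 of the 10 genes, in both directions, where 39.2% of all genes passed. SED1 (1.61 ± 0.15, limma adjusted p = 0.00175) and CWP1 (0.65 ± 0.12, adjusted p = 0.0109) were higher in the snq2 deletion strain, where 16.4% of all genes were higher. CCW14 (-1.38 ± 0.17, adjusted p = 0.00353), HSP150 (-0.90 ± 0.17, adjusted p = 0.0116), PIR3 (-0.74 ± 0.15, adjusted p = 0.0156) and CWP2 (-0.84 ± 0.22, adjusted p = 0.0310) were lower, as were 22.8% of all genes. SED1 was the 1 gene of the 10 outside the control range of this comparison, whose upper limit was 1.43. The SED1 and CCW14 calls held under all 13 alternatives, and the other 4 were each lost under some. With an array of either strain left out, fewer of all genes passed as well. Where this ended a call, HSP150 lay between -0.72 and -0.97 and PIR3 between -0.68 and -0.79. CWP1 then lay between 0.58 and 0.61, and CWP2 between -0.68 and -1.01. Without snq2 deletion replicate 1 the calls of HSP150, PIR3, CWP1 and CWP2 were lost (adjusted p = 0.0627, 0.0710, 0.0530 and 0.135). Without snq2 deletion replicate 2 those of HSP150, PIR3 and CWP2 were lost (0.0535, 0.0752 and 0.0710), and without parental replicate 1 all 4 (0.0613, 0.0894, 0.0731 and 0.111). Without parental replicate 2 PIR3 and CWP2 were lost (0.0650 and 0.123). The adjusted p ranged from 0.00973 to 0.431 for HSP150, 0.00720 to 0.752 for PIR3, 0.00846 to 0.0731 for CWP1 and 0.00979 to 0.135 for CWP2.

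Quantile normalisation changed more in this comparison. With it PIR1 and YPS1 passed as higher in the snq2 deletion strain (0.87, adjusted p = 0.0161, and 1.62, adjusted p = 0.00116), and HSP150 (-0.29, adjusted p = 0.431) and CWP2 (-0.76, adjusted p = 0.0720) did not pass. PIR3 then lay at 0.078 (adjusted p = 0.752) and SED1 at 2.57. As deposited, the differences that did not pass were 0.36 for PIR1 (95% interval -0.021 to 0.75), -0.22 for CIS3 (-0.51 to 0.073), -0.24 for CCW12 (-0.77 to 0.29) and 0.50 for YPS1 (0.010 to 0.98, adjusted p = 0.0959). The adjusted p of PIR1 ranged from 0.0161 to 0.395 over the alternatives and that of YPS1 from 0.00116 to 0.331.

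The erg6 deletion response was above the snq2 deletion response for 9 of the 10 genes, where 49.6% of all genes passed (23.0% higher and 26.5% lower). HSP150 (3.02 ± 0.17) and PIR3 (2.94 ± 0.15) differed most among the 10, both with a limma adjusted p of 0.000547, followed by YPS1 (2.60 ± 0.19), CCW14 (2.09 ± 0.17) and PIR1 (1.75 ± 0.15). CIS3 differed by 1.54 ± 0.12, CCW12 by 1.32 ± 0.21, SED1 by 1.06 ± 0.15 and CWP2 by 1.05 ± 0.22. The CWP2 difference was lost without snq2 deletion replicate 1 (0.89, adjusted p = 0.0659, between 0.00514 and 0.0659 over the alternatives). None of the 10 lay outside the control range of this comparison (-1.56 to 3.18). The CWP1 difference, which did not pass, was 0.054, with a 95% interval of -0.25 to 0.36.

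**Figure D3:**
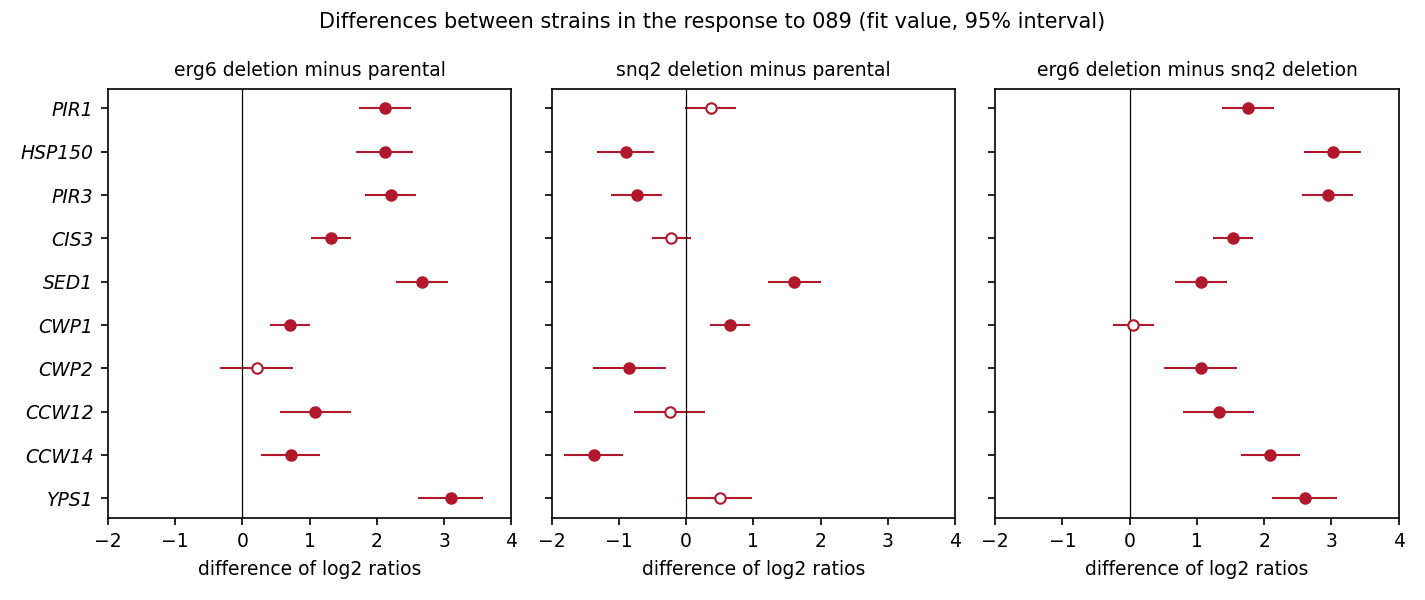
Differences between the responses of 2 strains (horizontal axis, difference of log2 ratios) for the 10 genes (vertical axis), with the 95% interval of the fit. Filled points passed the test at an adjusted p of 0.05 and open points did not, so that 9, 6 and 9 points are filled from left to right.

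Several of the genes are neighbours in the genome, per the RefSeq gene table. HSP150 and CIS3 are adjacent on chromosome X, with PIR5 on the other side of HSP150, while PIR1 and PIR3 are adjacent on chromosome XI. PIR5, a less studied member of the PIR family that is outside the 10 and was looked up after its values were seen, had 0.12 ± 0.20 in the erg6 deletion strain, -1.11 ± 0.20 in the snq2 deletion strain and -0.27 ± 0.20 in the parental strain. It fell in the snq2 deletion strain (limma adjusted p = 0.00683) and did not pass in the others (0.627 in the erg6 deletion and 0.298 in the parental strain). CWP1 and CWP2 are adjacent on chromosome XI as well, and they moved in opposite directions in the erg6 deletion and parental strains. YPS1 lies next to YPS3 on chromosome XII, which encodes another yapsin. YPS3 fell in the erg6 deletion strain (-1.03 ± 0.11) and the snq2 deletion strain (-2.33 ± 0.11), and had -0.20 ± 0.11 in the parental strain (limma adjusted p = 0.164). The neighbours' values had opposite signs in the erg6 deletion strain, where YPS1 rose. Probe sequences were not analysed here, and the part of cross-hybridisation between related genes was not tested.

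Likeness was measured as the root mean square difference of log2 ratios over the 6 arrays, and smaller is more alike. Among the 45 pairs of members, HSP150 and PIR3 were closest at 0.24, followed by CIS3 and CCW12 at 0.28, and PIR3 and CWP2 were farthest apart at 2.56. Outside the 10, the nearest annotated gene to both HSP150 (0.16) and PIR3 (0.28) was TIR1, a GPI wall mannoprotein gene of cold and anaerobic cells, and the next was YGP1, a secreted glycoprotein gene (0.27 and 0.39). The nearest to PIR1 were GSR1 (0.19) and PNO1 (0.24), and to CIS3 WHI2 (0.099) and VIP1 (0.14). SED1 was nearest to COX5A, a cytochrome oxidase subunit gene (0.094), and GLO1, glyoxalase I (0.11). CWP1 was nearest to ERG24, a sterol C-14 reductase gene (0.086), and EXG2, an exoglucanase gene (0.13), and CWP2 to PSY4 (0.16) and SNX3 (0.18). CCW12 was nearest to NOT5 (0.13) and ESC1 (0.14), CCW14 to YPL088W (0.12) and SHM2 (0.13), and YPS1 to the ribosomal protein gene RPS11A (0.37) and CKB2 (0.38). For 9 of the 10 genes the nearest gene was no member, and PIR3 was the exception, with HSP150 nearest. With 5816 annotated genes outside the 10, that count is not read as a trait of the members. Among 5825 annotated genes the nearest member ranked 1 for PIR3, 2 for HSP150, 14 for YPS1, 46 for CCW12 and 52 for PIR1. It ranked 62 for CIS3, 97 for SED1, 152 for CCW14, 1285 for CWP1 and 3075 for CWP2.

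Other genes of the wall were read from 6 lists, whose counts are set beside the shares of all genes given at the start. The lists were chosen with earlier results of these data known. With an array of a strain left out, fewer of all genes passed in that strain as well. The list for glucan remodelling and crosslinking holds 31 genes, among them some for other proteins, such as the secreted glycoprotein gene YGP1. Of the 31, 10 rose and 4 fell in the erg6 deletion strain. In the snq2 deletion strain 3 rose and 18 fell, and in the parental strain 2 rose and 17 fell. The rises are 32.3%, 9.68% and 6.45% of the list, against 23.2%, 25.3% and 27.3% of all genes. The falls are 12.9%, 58.1% and 54.8% of the list, against 31.5%, 26.2% and 26.7% of all genes. Their medians were 0.19, -0.62 and -0.58, against -0.11, -0.027 and -0.021 for all genes. SCW4, a wall glucanase family protein, and TOS1, a protein bound to wall glucan, rose by 1.22 ± 0.082 and 1.10 ± 0.083 in the erg6 deletion strain, while NCA3 of the SUN family fell by 1.67 ± 0.12. In the snq2 deletion strain YGP1 (-2.41 ± 0.12), CRH1, which joins chitin to glucan (-2.27 ± 0.10), and UTH1 of the SUN family (-1.96 ± 0.089) fell. In the parental strain YGP1 (-1.71 ± 0.12), KRE6, a gene of beta-1,6-glucan synthesis (-1.45 ± 0.11), and SIM1 of the SUN family (-1.43 ± 0.10) fell. The response of the erg6 deletion strain was above the parental one for 17 of the 31 and below for 2. These are 54.8% and 6.45% of the list, against 25.4% and 31.4% of all genes in that comparison. BGL2, a glucan-modifying wall enzyme gene, had a difference of 2.14 ± 0.14. The small counts moved with single arrays: the 3 that rose in the snq2 deletion strain were 1 without its replicate 2, and the 2 that rose in the parental strain were 0 without parental replicate 1 or 2 and 1 without either snq2 deletion replicate. The 2 below the parental response were 4 without erg6 deletion replicate 2 and 1 without parental replicate 1 or 2.

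Of 27 genes for the synthesis and attachment of the GPI anchor, 26 were measured. In the erg6 deletion strain 6 rose and 6 fell, in the snq2 deletion strain 11 rose and 3 fell, and in the parental strain 9 rose and 1 fell. The rises are 23.1%, 42.3% and 34.6% of the list, against 23.2%, 25.3% and 27.3% of all genes, so that the erg6 deletion count is at the background. SMP3, the mannosyltransferase gene for a side mannose of the anchor, rose by 2.20 ± 0.12 in the snq2 deletion strain and by 2.79 ± 0.12 in the parental strain, and its erg6 deletion response was lower than the parental one by 3.10 ± 0.17. GPI11 rose by 1.05 ± 0.083 and 0.99 ± 0.083 in the snq2 deletion and parental strains, and GPI13 by 1.03 ± 0.092 and 1.06 ± 0.092, both genes for adding phosphoethanolamine. GPI16, a subunit of the transamidase that attaches the anchor, rose by 1.04 ± 0.087 in the erg6 deletion strain, where GPI12, a deacetylase of early anchor synthesis, fell by 0.95 ± 0.081. The 11 were 5 without snq2 deletion replicate 1 and 4 without replicate 2, and the 3 were 1 and 0 there and 5 without either erg6 deletion replicate. The 1 parental fall was 0 without parental replicate 2 and 3 without either erg6 deletion replicate.

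Of the 33 genes for protein O-mannosylation and mannan synthesis, 9 rose and 13 fell in the erg6 deletion strain, 5 rose and 15 fell in the snq2 deletion strain, and 10 rose and 10 fell in the parental strain. The rises are 27.3%, 15.2% and 30.3% of the list and the falls 39.4%, 45.5% and 30.3%, against 23.2%, 25.3% and 27.3% of all genes for rises and 31.5%, 26.2% and 26.7% for falls, and the parental shares are near the background. The falls were 7 without either erg6 deletion replicate and 7 without either snq2 deletion replicate in those strains. The 5 that rose in the snq2 deletion strain were 1 without either replicate of that strain or of the parental strain. In the parental strain 5 rose and 4 fell without parental replicate 1, and 5 rose and 3 fell without replicate 2. PMT2, an O-mannosyltransferase gene, fell by 1.44 ± 0.094 in the snq2 deletion strain, and its erg6 deletion response was above the parental one by 1.51 ± 0.13. KRE2, a mannosyltransferase gene of the Golgi, rose by 1.09 ± 0.11 in the erg6 deletion strain, where PMT6 fell (-1.37 ± 0.12).

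Of the 26 other mannoproteins of the wall or membrane, 9 rose and 2 fell in the erg6 deletion strain, 6 rose and 5 fell in the snq2 deletion strain, and 5 rose and 7 fell in the parental strain. The rises are 34.6%, 23.1% and 19.2% of the list and the falls 7.69%, 19.2% and 26.9%, against 23.2%, 25.3% and 27.3% of all genes for rises and 31.5%, 26.2% and 26.7% for falls. TIP1, a GPI wall mannoprotein gene of cold-shocked cells, rose by 1.07 ± 0.086 in the erg6 deletion strain, and its erg6 deletion and snq2 deletion responses exceeded the parental one by 1.86 ± 0.12 and 1.32 ± 0.12. ECM33, whose loss weakens the wall, fell by 1.22 ± 0.10 in the snq2 deletion strain, and PLB3, a phospholipase B gene, fell in the erg6 deletion (-1.22 ± 0.092), snq2 deletion (-2.24 ± 0.092) and parental (-1.65 ± 0.092) strains. The 2 lower in the erg6 deletion strain were 5 without its replicate 1. The 6 higher in the snq2 deletion strain were 2 without its replicate 1 and 1 without replicate 2, and the 5 higher in the parental strain were 2 without replicate 1 and 3 without replicate 2.

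Among the 5 other yapsin genes and KEX2, which encodes the protease that matures PIR proteins, 2 rose and 1 fell in the erg6 deletion strain, and 1 rose and 4 fell in the snq2 deletion strain, where 26.2% of all genes fell. In the parental strain 0 of the 6 passed in limma, and 1 had an unadjusted p under 0.05. YPS6 rose by 0.87 ± 0.11 in the erg6 deletion strain. Without erg6 deletion replicate 1 the 2 rises were 1, and without replicate 2 there were 3 falls. In the snq2 deletion strain 0 rose and 1 fell without either replicate of that strain, and 0 rose without either parental replicate. In the parental strain 1 of the 6 passed, as a rise, with centred arrays, robust eBayes, annotated genes alone or a fit to that strain alone.

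Of 10 transcription factor genes linked to wall gene control, 2 rose and 2 fell in the erg6 deletion strain, 4 fell in the snq2 deletion strain, and 2 rose and 3 fell in the parental strain. With 23.2%, 25.3% and 27.3% of all genes higher and 31.5%, 26.2% and 26.7% lower, these counts of 10 genes are near the background in the erg6 deletion or parental strain. RLM1, the factor at the end of the wall integrity cascade, fell by 1.65 ± 0.10 in the snq2 deletion strain. Its erg6 deletion response exceeded the snq2 deletion one by 2.19 ± 0.15. The snq2 deletion response of RLM1 minus the parental one was -1.49 ± 0.15 (limma adjusted p = 0.00177), so the 2 strains in which most members fell differed for RLM1. MSN4, a general stress factor gene, fell in the erg6 deletion (-1.62 ± 0.097), snq2 deletion (-2.44 ± 0.097) and parental (-1.69 ± 0.097) strains. Its partner MSN2 fell by 2.05 ± 0.13 in the snq2 deletion strain. The 2 falls in the erg6 deletion strain were 4 without its replicate 1, and the 2 rises in the parental strain were 1 without parental replicate 1. In a fit to the erg6 deletion arrays alone, the falls in the glucan remodelling list were 2, the rises among the other mannoproteins 5 and the falls 1, the rises in mannan synthesis 5 and the falls 3, and the rises among the other yapsins 1.

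**Figure D4:**
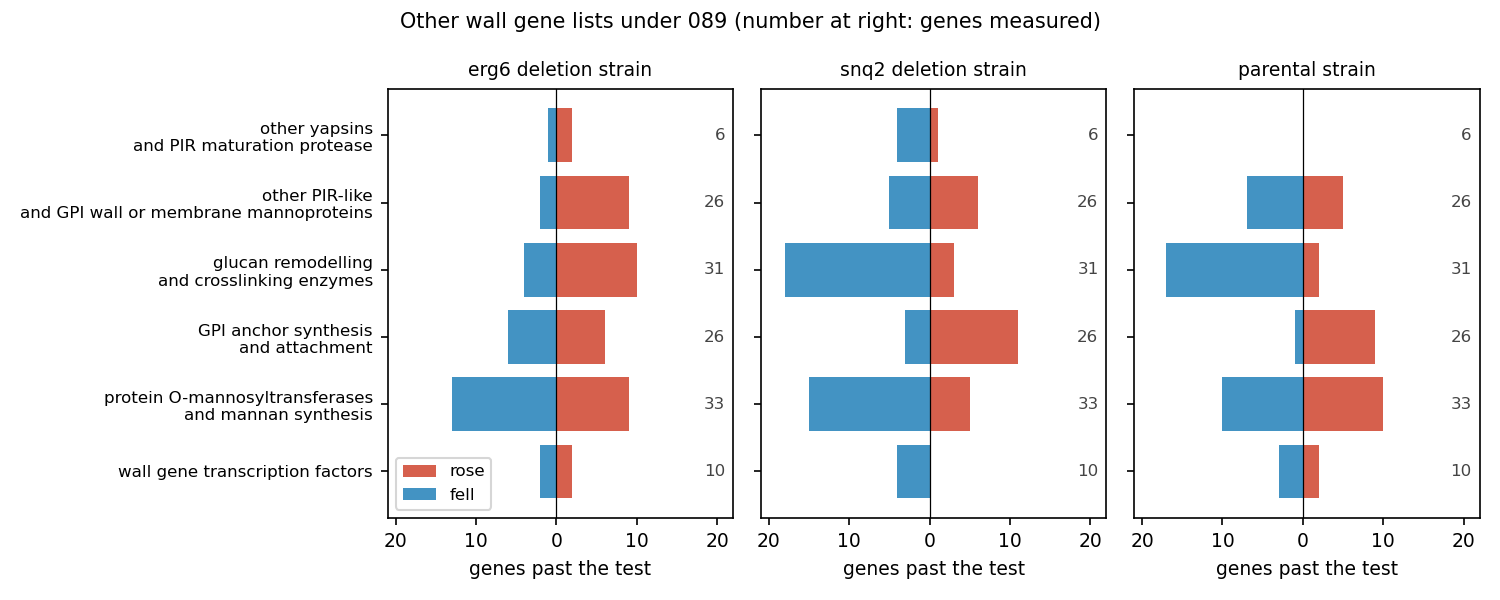
Genes of 6 wall lists that rose (right of 0) or fell (left of 0) under 089 at an adjusted p of 0.05, by strain, with the number measured at the right edge. In the list for glucan remodelling and crosslinking 18 and 17 genes fell in the snq2 deletion and parental strains and 4 in the erg6 deletion strain.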

How the data were processed

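The deposited table holds signed ratios for 7045 features on each of 6 arrays, with 0 missing, which the authors computed and which are read here as log2 of treated over untreated. Per the labels, the scanner was a GenePix 4000B. For background correction, normalization, filters, log base and direction the sources used here give nothing. Treated cells carried Cy5 on every array, so a dye effect stays in each response. Control spots (683) were kept out, and 5826 of 6362 genes matched the RefSeq table (assembly R64, used for names and neighbours).

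A mean per strain was estimated with lmFit of limma 3.58.1 under R 4.3.3, with variances moderated by eBayes (residual df 3, prior df 2.45). The Benjamini-Hochberg adjustment ran over all 6362 genes in each of 6 contrasts. The spread is taken as equal in the 3 strains. The script was tested on simulated data. All 10 genes were named, up to 3 genes per list and contrast by smallest p, and the 2 nearest genes by likeness. The members and lists were chosen with earlier results of these data known. The alternatives were arrays centred, scaled or quantile-normalised, a block for replicate number, robust eBayes, annotated genes, a fit to the compared strains, and each array left out.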

Additional observations from a re-analysis of the deposited data

Results flagged for a closer look

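These differences between strains in the response to 089 passed the test of the difference itself, each given as log2 ratio in the first strain minus that in the second. Between the erg6 deletion and parental strains they were 2.12 for PIR1, 2.11 for HSP150, 2.20 for PIR3, 1.32 for CIS3, 2.67 for SED1, 0.71 for CWP1, 1.08 for CCW12, 0.72 for CCW14 and 3.10 for YPS1. Between the snq2 deletion and parental strains they were -0.90 for HSP150, -0.74 for PIR3, 1.61 for SED1, 0.65 for CWP1, -0.84 for CWP2 and -1.38 for CCW14. Between the erg6 deletion and snq2 deletion strains they were 1.75 for PIR1, 3.02 for HSP150, 2.94 for PIR3, 1.54 for CIS3, 1.06 for SED1, 1.05 for CWP2, 1.32 for CCW12, 2.09 for CCW14 and 2.60 for YPS1. In the snq2 deletion minus parental comparison the calls of HSP150, PIR3, CWP1 and CWP2 were each lost under some of the 13 alternatives. PIR3 lay there at 0.078 with quantile normalisation. The call of CCW14 between the erg6 deletion and parental strains was also lost under some, as was that of CWP2 between the 2 deletion strains. The members' replicates differed by at most 0.52 within a strain.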

How the results depend on the processing

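Over 13 alternatives for each of 60 member values, 736 of 780 kept their direction and their side of the threshold, 34 lost the call, 6 gained it and 4 turned sign. One of these had been called, PIR3 in the snq2 deletion minus parental comparison, at 0.078 with quantile normalisation. The other 3 passed in neither fit: PIR3 in the erg6 deletion strain (-0.055 without its replicate 2), CWP2 in the snq2 deletion strain (-0.028 without its replicate 2) and CWP2 in the erg6 deletion minus parental comparison (-0.051 without erg6 deletion replicate 1). The log2 ratio itself could not change with the replicate block, robust eBayes, annotated genes alone or a fit to the compared strains. The same holds with an array of a strain outside the comparison left out. In those alternatives the direction was fixed in advance, and only the adjusted p could move. In a fit to the erg6 deletion arrays alone 1946 genes and 4 of the 10 members passed, with 1 residual degree of freedom per gene. With each array left out in turn, the genes past the threshold ranged from 1672 to 3656 in the snq2 deletion strain, 1914 to 3829 in the parental strain, 1202 to 2889 in the snq2 deletion minus parental comparison and 1952 to 3095 in the erg6 deletion minus snq2 deletion comparison. The members past it ranged from 2 to 6 in the snq2 deletion minus parental comparison. Same-numbered arrays did not deviate together (r = -0.0020, 0.095 and -0.042 between strains). This does not show whether they were handled together, since an effect shared by treated and untreated cells cancels in a ratio. With the replicate block the members past the threshold were 8 in the erg6 deletion, 8 in the snq2 deletion and 8 in the parental strain, and 9, 5 and 9 in the 3 differences, where CCW12 in the parental strain (adjusted p = 0.0518) and CWP2 in the snq2 deletion minus parental comparison (adjusted p = 0.0559) did not pass. Of the 20 nearest genes 20, 17 and 18 stayed with centred, scaled and quantile-normalised arrays. Signal over background could not be computed, and precision is limited by having 2 arrays per strain.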
